A study of Mus musculus with 12 samples.

Results

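Nephron progenitor cells (NPC) grown for 24 h in a DMEM-based medium with the glycolysis inhibitor YN1 were compared with NPC kept in nephron progenitor expansion medium (NPEM). The comparison used 6 of the 12 bulk RNA-seq libraries of the study, 3 from YN1-treated cells and 3 from NPEM control cells, and was read across the whole transcriptome. The cells came from kidneys of E13.5 mouse embryos, from CD1 females time-paired with Six2GFP+ or GFP- males, and all groups are labelled wild type. They were isolated by magnetic cell sorting, expanded in NPEM and treated after 2-3 passages according to the protocols, whereas the design text of the series calls them freshly isolated. The YN1 group received 20 µM YN1 in DMEM with knockout serum replacement and 200 ng/mL Fgf2. The CHIR group received 3.5 µM of the GSK3 inhibitor CHIR99021 in the same kind of medium. The DMEM control had the DMEM-based medium without either compound, although its supplements are not described, and the NPEM control stayed in NPEM. The study describes 3 independent NPC preparations, and libraries with the same replicate number were treated as a pair; the first library of each group carries no number in its title and was taken as replicate 1. YN1 against NPEM changes the drug and the medium at once, so their parts in that comparison cannot be told apart, and the same YN1 libraries were therefore also set against the DMEM control.

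NPC are the cells of the cap mesenchyme, which surround the tips of the branching ureteric bud and form the epithelium of the nephron. Six2, Cited1, Eya1 and Osr1 mark the self-renewing state, and a WNT signal acting through beta-catenin, which a GSK3 inhibitor mimics, starts their differentiation. YN1 blocks PFKFB3, an enzyme that makes fructose-2,6-bisphosphate, the main activator of the glycolytic enzyme phosphofructokinase. NPEM is a defined medium that supplies growth factors and small molecules to keep the cells in the progenitor state.

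The values are TPM, transcript abundances scaled to a fixed library total, which carry no read depth, so the counting error of single values is not known. Each library summed to 969477 to 973162 TPM over the 54184 genes of the tables, and 13754 to 14569 genes reached 1 TPM. The labelled cell type was checked on its markers: all 22 NPC identity genes passed the filter described next, and their summed level was 1278, 2269 and 1727 TPM in the YN1 libraries and 1891, 2167 and 1591 TPM in the NPEM libraries. Of 11 macrophage markers 5 were at 0 in all 6 libraries and the list summed to 4.11 to 7.15 TPM with YN1 and 7.14 to 10.9 TPM in NPEM, whereas stromal markers were at 7029, 2487 and 5801 TPM with YN1 and 3915, 1406 and 1531 TPM in NPEM. Bulk RNA cannot separate fewer cells of a type from less RNA per cell, here or in the results that follow.

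Of 14323 genes with at least 1 TPM in 3 or more of the 6 libraries, 108 passed an adjusted p of 0.05 (0.754%). Among them 70 were higher with YN1 (0.489% of genes tested) and 38 were lower (0.265%). Differences are given as LogFC, the YN1 minus NPEM difference in log2(TPM + 1) within replicate pairs, from limma, with p-values adjusted by Benjamini and Hochberg's method across every gene in the comparison. The rises were the larger group also by size, with 37 genes above a LogFC of 2 against 18 below -2. In 97 of the 108 genes the libraries of both groups did not overlap, as in 2028 of all genes tested that were higher (14.2%) and 1001 that were lower (6.99%). Before adjustment 3443 genes had a p under 0.05 (24.0%), of which 2236 were higher (15.6%) and 1207 lower (8.43%), and the median LogFC of all genes tested was 0.09. Most calls lay near the threshold: Gatm, Acadvl and Abca3 were just inside at adjusted p of 0.0495, 0.0491 and 0.0491, and Slc50a1 was just outside at 0.0507. The number of calls moved with the replicate pair left out: it was 12, 278 and 32 without YN1 replicates 1, 2 and 3, and 8, 233 and 23 without NPEM replicates 1, 2 and 3. Under the replicate block, leaving out either library of a pair takes its partner out of the contrast too, so these counts speak for pairs and not for single libraries. Without the replicate block 33 genes passed, 30 of them among the 108, without a trend in the variance 4 passed, and with no filter on low values none did in limma, with 4035 at p under 0.05 before adjustment. When all 12 libraries shared 1 estimate of the spread, 2374 genes passed, including all 108. After quantile normalization 105 genes passed, 86 of them shared, and 49.5% of the calls were higher with YN1 in place of 64.8%.

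**Figure D1:**
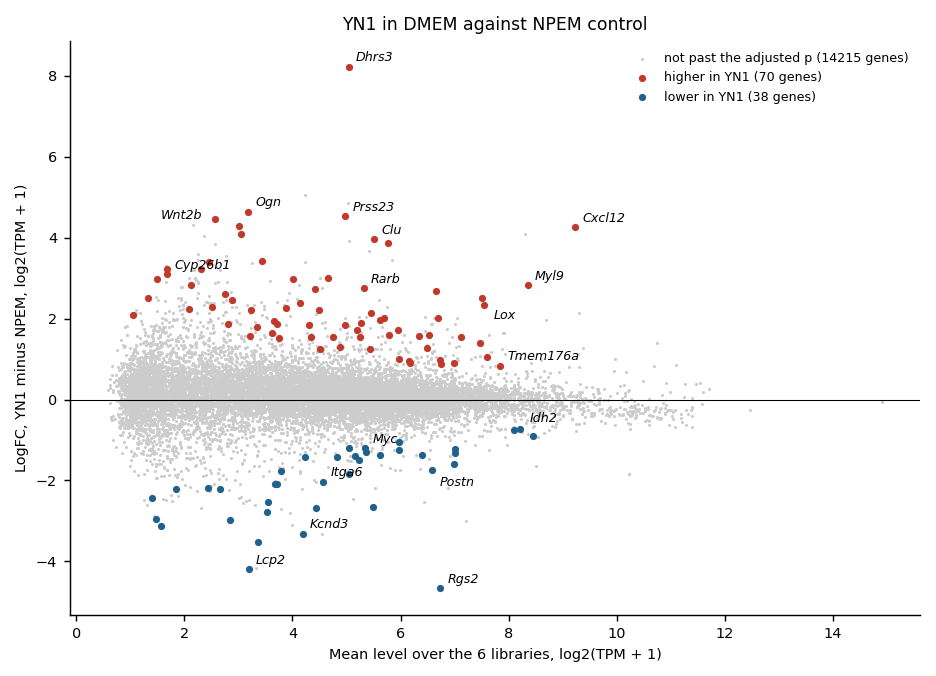
LogFC of YN1 minus NPEM (vertical axis, log2(TPM + 1)) against the mean level over the 6 libraries (horizontal axis, log2(TPM + 1)) for the 14323 genes tested. Red points are the 70 genes higher and blue points the 38 genes lower with YN1 at an adjusted p under 0.05; Dhrs3 stands apart at 8.22 and Rgs2 at -4.67.

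The largest change in the transcriptome was in a gene of retinoid metabolism. Retinoic acid is made from retinol in the developing kidney, mainly in the stroma, and acts through nuclear receptors on genes that in turn limit it. Dhrs3, a reductase that turns retinaldehyde back into retinol, had 583, 607 and 519 TPM in the YN1 libraries, against 0.954, 0.416 and 1.52 TPM in the NPEM libraries (LogFC 8.22 ± 0.23, SE; adjusted p = 0.00266). It was near silent in every NPEM library and among the abundant transcripts in every YN1 library. Rarb, a retinoic acid receptor that is itself induced by retinoic acid, had 153, 76.7 and 91.9 TPM with YN1 and 27.8, 8.49 and 12.5 TPM in NPEM (LogFC 2.74 ± 0.16, adjusted p = 0.0261). Cyp26b1, which oxidises retinoic acid for its removal, had 11.7, 8.73 and 5.68 TPM with YN1 and 0.0327, 0.188 and 0.0647 TPM in NPEM (LogFC 3.10 ± 0.28, adjusted p = 0.0438). None of these 3 genes overlapped between the groups. The retinoid list had 4 calls among 18 tested genes, all of them higher, and its median LogFC was 0.32 against 0.09 over all genes. At an unadjusted p under 0.05, 7 members were higher and 3 lower. The members that did not pass pointed both ways: Stra6, a retinol importer, had a LogFC of 2.30 ± 0.40 (adjusted p = 0.077) and the receptor Rarg one of 0.98 ± 0.13 (0.0552), whereas Aldh1a2, the enzyme that makes retinoic acid, was at -0.92 ± 0.25 (0.124) and Crabp1, a retinoic acid binding protein, at -1.99 ± 0.34 (0.0751).

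The start of Rarb shows the sequence through which retinoic acid receptors are known to act on this gene. Rarb lies on chromosome 14 at 16430839 to 17082331 in GRCm38.p6, on the minus strand, and Dhrs3 on chromosome 4 at 144892534 to 144928209. The window from 250 bases before to 50 bases after 1 of the Rarb transcript starts in RefSeq (chr14:16575427-16575726, minus strand, 5′ to 3′) is printed with its retinoic acid response element in capitals, a direct repeat of a half-site with 5 bases between the copies.
Rarb: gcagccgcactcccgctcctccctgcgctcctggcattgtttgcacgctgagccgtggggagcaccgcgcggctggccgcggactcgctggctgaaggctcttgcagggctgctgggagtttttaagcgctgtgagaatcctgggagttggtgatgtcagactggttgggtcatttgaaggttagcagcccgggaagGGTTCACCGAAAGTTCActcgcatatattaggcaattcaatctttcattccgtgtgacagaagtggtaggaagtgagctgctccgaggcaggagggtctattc
The element starts at -53. The letters searched on both strands were 2 copies of NGNTCA with any 5 bases between them, and 283 of 32851 such windows held them (0.861%), at 267 of 27025 genes. Among the genes past the adjusted p with a window, 2 of 77 held the letters, Ak1 and Rarb, and among the retinoid list 2 of 20 did, Cyp26a1 and Rarb.

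Several secreted signals and their receptors rose with YN1. Cxcl12, the chemokine SDF-1, had 1967, 3399 and 2708 TPM in the YN1 libraries and 85.7, 282 and 106 TPM in the NPEM libraries (LogFC 4.25 ± 0.23, adjusted p = 0.0261). Ackr3, the scavenging receptor that clears CXCL12, was at 45.9, 32.2 and 27.7 TPM with YN1 and at 2.13, 2.25 and 2.59 TPM in NPEM (LogFC 3.42 ± 0.24, adjusted p = 0.0394). Both genes were more than 10 times higher in each YN1 library than in its NPEM pair, while the signalling receptor Cxcr4 had a LogFC of -1.95 ± 0.51 that did not pass (adjusted p = 0.116). Wnt2b, a WNT ligand known from the kidney stroma, had 15.8, 35.8 and 33.8 TPM with YN1 and 0.0276, 0.736 and 0.12 TPM in NPEM (LogFC 4.47 ± 0.26, adjusted p = 0.0261). It was the only call among 16 tested WNT ligands and secreted regulators, whose median LogFC was 0.05. Tgfb3, a TGF-beta ligand, rose by 2.01 ± 0.21, and Tgfb2 had a LogFC of 1.24 ± 0.17 with an adjusted p of 0.0571. The TGF-beta list as a whole had a median LogFC of 0.81 over 22 genes, with 11 higher and 1 lower with p under 0.05 before adjustment and 2 of them past the adjusted p, both higher.

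Receptor subunits for cytokines of the interleukin-6 family rose as well. Osmr, the oncostatin M receptor, was at 25.2, 7.5 and 19.6 TPM with YN1 and at 2.86, 0.843 and 1.84 TPM in NPEM (LogFC 2.61 ± 0.23, adjusted p = 0.0438). Il6st, the shared subunit gp130, was at 203, 96.3 and 134 TPM with YN1 and at 60.0, 42 and 38.5 TPM in NPEM (LogFC 1.56 ± 0.15, adjusted p = 0.0462). The groups did not overlap for either subunit. The LIF receptor Lifr, the transcription factor Stat3 and its target Socs3 had LogFC of 0.59, 0.81 and 1.06 and did not pass (adjusted p = 0.262, 0.0821 and 0.0988). Other receptors and ligands among the rises were Efnb2, an ephrin ligand (1.87 ± 0.18), Nrp1, a coreceptor for semaphorins and VEGF (0.89 ± 0.09), and Cck, the peptide cholecystokinin (3.23 ± 0.25), which was listed at 0 in 2 NPEM libraries and at 7.65, 11.6 and 7.71 TPM with YN1.

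**Figure D2:**
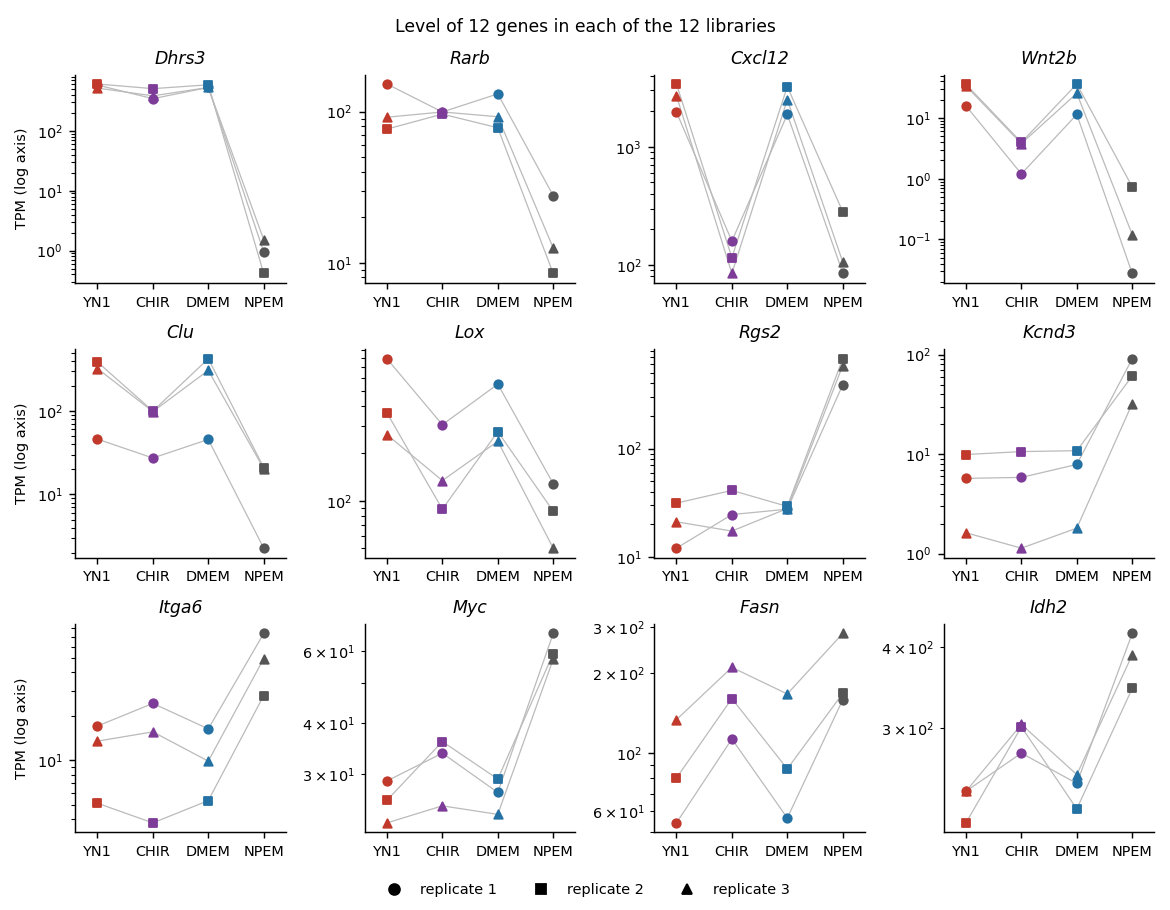
TPM (log axis) of 12 genes in each of the 12 libraries, with the groups in the order YN1, CHIR, DMEM and NPEM and grey lines joining libraries of the same replicate number (circle 1, square 2, triangle 3). YN1 and DMEM points lie closer to each other than to NPEM in these genes: Dhrs3 has 519 to 607 TPM with YN1 and 0.416 to 1.52 TPM in NPEM, and Rgs2 has 12.1 to 31.5 TPM with YN1 and 389 to 676 TPM in NPEM.

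Several genes of the extracellular matrix and of its turnover rose. Lox, which crosslinks collagen and elastin, had 795, 361 and 263 TPM with YN1 and 128, 86.1 and 50.2 TPM in NPEM (LogFC 2.35 ± 0.13, adjusted p = 0.0261). Ogn, the proteoglycan osteoglycin, had 129, 56 and 11.4 TPM with YN1 and 3.12, 0.414 and 0.0316 TPM in NPEM (LogFC 4.64 ± 0.38, adjusted p = 0.0438), so that both groups fell in the same order of replicates but did not overlap. Clu, the secreted chaperone clusterin, had 46.1, 386 and 322 TPM with YN1 and 2.28, 21 and 20.4 TPM in NPEM (LogFC 3.97 ± 0.12, adjusted p = 0.00266). Replicate 1 was low in both groups, and the rise within each pair was alike. The matrix proteins Ecm1 (3.86 ± 0.31), Crispld2 (4.28 ± 0.30), Thbs3 (1.53 ± 0.15) and Sparcl1 (1.40 ± 0.15) also rose, as did Tgm2 (4.09 ± 0.37) and Tgm5 (2.50 ± 0.24), transglutaminases that crosslink proteins. Fbln5, which helps assemble elastic fibres, rose within pairs (LogFC 2.67 ± 0.30), although the lowest of its 601, 211 and 128 TPM with YN1 lay below the highest NPEM library at 139 TPM. Of 51 tested glycoproteins and proteoglycans 6 passed as higher and 1 as lower, with a median LogFC of 0.32.

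Among matrix proteases and their inhibitors 4 of 38 were higher and none was lower at the adjusted p, and 18 were higher and 3 lower with p under 0.05 before adjustment, with a median LogFC of 0.58. Plat, tissue plasminogen activator, had 151, 263 and 218 TPM with YN1 and 44.3, 76.9 and 37.7 TPM in NPEM (LogFC 2.00 ± 0.18). Adamts1, a protease that cleaves proteoglycans, had 106, 235 and 163 TPM with YN1 and 44.3, 60.1 and 53 TPM in NPEM (1.60 ± 0.16). For both genes the lowest YN1 library was above the highest NPEM library. The serine protease Prss23 (4.53 ± 0.51), the metalloproteinase Mmp23 (2.13 ± 0.19), the complement-linked protease Masp1 (2.74 ± 0.31) and the C1 inhibitor Serping1 (1.71 ± 0.14) rose too, as did Itih2 (3.39 ± 0.22) and Itih5 (2.29 ± 0.21), heavy chains that bind hyaluronan.

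Collagens were less uniform. Col6a3, a chain of collagen VI, fell (132, 73.6 and 38.1 TPM with YN1, against 484, 175 and 126 TPM in NPEM; LogFC -1.60 ± 0.15, adjusted p = 0.0439), and so did the matricellular protein Postn (197, 38.5 and 17.3 TPM with YN1, against 891, 131 and 45 TPM in NPEM; -1.75 ± 0.18, adjusted p = 0.048). In both genes replicate 1 was the highest of each group, the groups overlapped, and the call rested on the differences within pairs. The fibrillar chains Col1a1, Col1a2 and Col3a1 had LogFC of 1.27, 0.71 and 1.11 and did not pass (adjusted p = 0.106, 0.068 and 0.0842). Of 31 tested collagens, 12 were higher and 5 lower with p under 0.05 before adjustment.

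Contractile genes of smooth muscle showed the highest median of the lists drawn in the plot of gene groups, at a LogFC of 1.17 over 20 genes. Myl9, the regulatory light chain of smooth muscle myosin, was the only one past the adjusted p, with 1421, 564 and 831 TPM with YN1 and 205, 136 and 64.8 TPM in NPEM (LogFC 2.83 ± 0.31, adjusted p = 0.0491). At an unadjusted p under 0.05, 16 of the 20 were higher and none was lower. Tagln, which encodes SM22, had 2659, 501 and 1699.7 TPM with YN1 and 100.4, 96.6 and 44.4 TPM in NPEM (LogFC 4.10 ± 0.57, adjusted p = 0.0585), and calponin Cnn1 had 276, 28 and 159 TPM with YN1 and 3.23, 2.05 and 1.74 TPM in NPEM (LogFC 5.05 ± 0.59, adjusted p = 0.0522). The groups did not overlap for either gene, and the size of the rise was smallest in replicate 2 for both. The summed stromal markers given above were higher with YN1 in each pair. That list holds Tagln, Postn, Col1a1, Col1a2 and Col3a1, so the sum is not a separate observation from these genes. The part of stromal cells in these results was not tested.

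Fewer genes fell, and the largest falls included signalling and transcriptional regulators. Rgs2, a regulator of G protein signalling that speeds the shut-off of Gq, had 12.1, 31.5 and 21.2 TPM in the YN1 libraries, against 389, 676 and 585 TPM in the NPEM libraries (LogFC -4.67 ± 0.13, adjusted p = 0.00266). Rgs3, of the same family, had 26.7, 33.6 and 28.9 TPM with YN1 and 73.6, 80.5 and 81.1 TPM in NPEM (-1.37 ± 0.11, adjusted p = 0.0438). These were the only calls among 9 tested RGS genes, and neither overlapped between the groups. Lcp2, the adaptor SLP-76 known from T cells, was low with YN1 at 0.186, 3.3 and 0.918 TPM, against 53.4, 53.9 and 18.8 TPM in NPEM (-4.19 ± 0.46, adjusted p = 0.0491). Kcnd3, a potassium channel of the A-type current, had 5.71, 9.92 and 1.62 TPM with YN1 and 91.1, 61.1 and 32.2 TPM in NPEM (-3.32 ± 0.30, adjusted p = 0.0438). Both groups had replicate 3 lowest for Kcnd3, and the highest YN1 library was below the lowest NPEM library.

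Transcriptional regulators among the falls were Hopx, a homeodomain protein without DNA binding (-2.98 ± 0.31), Lmo1, a LIM-domain cofactor (-2.67 ± 0.27), and Mef2c, a MADS-box factor of muscle and other tissues (-2.09 ± 0.16). Foxc2, a forkhead factor of the early kidney mesenchyme, and Meis2, a TALE homeodomain factor, moved the other way (2.25 ± 0.19 and 1.55 ± 0.17). Meis2 had 187, 300.1 and 237 TPM with YN1 and 84.8, 76.1 and 80.9 TPM in NPEM, without overlap. Other falls included Pcp4, which modulates calmodulin (-3.53 ± 0.38), the RNA-binding protein Elavl2 (-2.78 ± 0.21), and Itga6, the laminin-binding integrin alpha-6 chain. Itga6 was at 17.2, 5.1 and 13.6 TPM with YN1 and at 73.8, 27.8 and 49.6 TPM in NPEM (-2.03 ± 0.15). Itga1, the collagen-binding alpha-1 chain, rose by 1.83 ± 0.15. The VEGF receptor Kdr, already low in NPEM, fell (1.16, 0.355 and 0.592 TPM with YN1, against 12.3, 4.49 and 5.47 TPM in NPEM; -2.22 ± 0.24, adjusted p = 0.0491). Only 4 of 12 endothelial markers passed the filter, 2 above 0 and 2 below, with a median LogFC of -0.87. Before adjustment 2 were lower and none higher with p under 0.05, and 2 were lower without overlap between the groups. The summed level of all 12 was 151, 177 and 134 TPM with YN1 and 160, 172 and 299.8 TPM in NPEM. Kdr itself is in that sum. Emcn alone gave 117, 125 and 76.1 TPM with YN1 and 86.4, 95.7 and 130 TPM in NPEM (LogFC 0.02 ± 0.26). The part of endothelial cells in the fall of Kdr was not tested.

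Among growth-factor feedback genes few passed, and those that did fell. Myc, a transcription factor that drives growth, had 28.9, 25.9 and 22.8 TPM with YN1, against 66.2, 59.1 and 57.3 TPM in NPEM (LogFC -1.20 ± 0.11, adjusted p = 0.0438). Its spread within each group was small beside the difference. Dusp4, a phosphatase induced by ERK that inactivates it, had 46.2, 65.4 and 45 TPM with YN1 and 142, 129.7 and 133 TPM in NPEM (-1.37 ± 0.15, adjusted p = 0.0491). Dusp6, the ERK phosphatase induced by FGF, was at -0.78 ± 0.10 and the immediate early gene Ier2 at -1.12 ± 0.13, both just outside the threshold (adjusted p = 0.0542 and 0.0519), and the FGF targets Etv5 and Spry2 were at -0.06 and -0.15. The FGF and ERK feedback list had 1 gene past the adjusted p of 21 tested, with a median LogFC of -0.21.

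The beta-catenin feedback list had the lowest median of the lists drawn in the plot of gene groups, a LogFC of -1.04 over 13 genes. Myc, which stands on that list too, was its only call, and 7 members were lower and 2 higher with p under 0.05 before adjustment. Dkk1, a secreted inhibitor of WNT receptors, had 6.32, 18.9 and 1.8 TPM with YN1 and 38.2, 144 and 69.9 TPM in NPEM (LogFC -3.32 ± 0.46, adjusted p = 0.0584). Its groups did not overlap. Axin2, the classical target that feeds back on the pathway, had 0.834, 2.81 and 5.76 TPM with YN1 and 9.19, 6.04 and 6.72 TPM in NPEM (-1.18 ± 0.47, adjusted p = 0.22), and Tcf7, a DNA-binding partner of beta-catenin, was at -1.04 ± 0.26 (adjusted p = 0.11). Lef1, another such partner, had a LogFC of 0.11 ± 0.29.

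Most progenitor identity genes did not pass. Six2, the transcription factor that keeps NPC undifferentiated, had 36, 168 and 106 TPM with YN1 and 74.1, 170.5 and 118 TPM in NPEM (LogFC -0.40 ± 0.22, adjusted p = 0.331). Cited1, a coactivator that marks the most naive cells, had 13.6, 83.2 and 29 TPM with YN1 and 22.3, 90.8 and 38.2 TPM in NPEM (-0.39 ± 0.15, adjusted p = 0.202). All 3 pairs were lower with YN1 for both genes, by less than the spread between replicates within either group. Eya1, the cofactor of Six2, was at -0.60 ± 0.22, Gdnf, the growth factor that NPC secrete for the ureteric bud, at -0.84 ± 0.29, Sall1, a zinc finger factor needed for kidney growth, at -0.51 ± 0.23, and Osr1, a factor of the earliest kidney mesoderm, at -0.27 ± 0.22, with adjusted p from 0.174 to 0.491. Of the 22 identity genes 15 were below 0 and 7 above, with a median of -0.27. Before adjustment 5 were lower and 3 higher with p under 0.05. The groups did not overlap in 2 that were higher and in none that was lower, beside 14.2% and 6.99% of all genes tested. The identity genes given here with values all lay below 0 and so show 1 side of the list. The only call was Crym, a thyroid hormone binding protein, with 6.66, 52.3 and 26.5 TPM with YN1 and 26.1, 127 and 70.9 TPM in NPEM (-1.49 ± 0.15, adjusted p = 0.0491), and its groups overlapped. Wnt4, which NPC switch on as they form the renal vesicle, had 5.3, 1.36 and 18 TPM with YN1 and 0.799, 0.306 and 0.399 TPM in NPEM (2.14 ± 0.59, adjusted p = 0.125). No call fell among the 12 tested renal vesicle genes, and their median was 0.01. They pointed both ways, with 4 higher and 3 lower with p under 0.05 before adjustment.

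Among stromal markers, 10 of 18 tested were higher and 1 lower with p under 0.05 before adjustment, 2 were called higher and 1 lower, and the median LogFC was 0.64. Tagln, Postn and the fibrillar collagens given above stand on this list. Foxd1, the transcription factor that defines the cortical stroma, was nearly silent in NPEM (0.0444, 0.0 and 0.031 TPM) and reached 1.42, 3.2 and 3.52 TPM with YN1, a difference that did not pass (1.80 ± 0.29, adjusted p = 0.0704).

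Genes of cholesterol synthesis had negative LogFC almost throughout, although 1 of them passed the adjusted p. Cells make cholesterol from acetyl-CoA through mevalonate, and the SREBP factors switch the genes of that pathway on when sterols are low. Hsd17b7, which acts late in the sterol steps, had 25.8, 29.3 and 21.5 TPM with YN1 and 73.7, 65.5 and 54.3 TPM in NPEM (LogFC -1.31 ± 0.12, adjusted p = 0.046). It was the only call of 21 genes tested. Of these 20 lay below 0, 14 were lower and 1 higher with p under 0.05 before adjustment, and the median LogFC was -0.73. Fdps, which makes farnesyl pyrophosphate, had 197, 136 and 203 TPM with YN1 and 441, 231 and 366 TPM in NPEM (-0.92 ± 0.11, adjusted p = 0.0523). Its groups did not overlap. The SREBP target Insig1, which holds SREBP back, was at -0.91 ± 0.13 (adjusted p = 0.0598), and Srebf1 and Srebf2 themselves at -0.70 and -0.40.

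Hmgcs1, the cytosolic HMG-CoA synthase, had 161, 167 and 194 TPM with YN1 and 462, 217 and 254 TPM in NPEM (LogFC -0.76 ± 0.26, adjusted p = 0.17). NPEM replicate 1 was well above the others, and the groups did not overlap. Its gene lies on chromosome 13 at 119690351 to 119708260 (GRCm38.p6, plus strand), and its start carries the kind of site that SREBP is known to bind. The window of 300 bases around the RefSeq start (chr13:119690101-119690400, plus strand, 5′ to 3′) is printed with the sterol regulatory element in capitals.
Hmgcs1: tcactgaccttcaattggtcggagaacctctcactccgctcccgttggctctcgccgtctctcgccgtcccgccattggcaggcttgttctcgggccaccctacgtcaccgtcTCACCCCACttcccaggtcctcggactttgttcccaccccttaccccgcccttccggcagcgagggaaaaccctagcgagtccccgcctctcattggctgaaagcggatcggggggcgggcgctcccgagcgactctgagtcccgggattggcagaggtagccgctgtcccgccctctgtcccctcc
The element starts at -137. The letters TCACNCCAC were searched on both strands and stood in 408 of 32851 windows (1.24%), at 388 of 27025 genes. Of 16 genes of the cholesterol list with a window only Hmgcs1 held them, and among the 77 genes past the adjusted p with a window Abca3 and Adamts1 did.

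Fatty acid genes passed in both directions. Fasn, fatty acid synthase, had 54.2, 80.2 and 134 TPM with YN1 and 159, 168 and 284 TPM in NPEM (LogFC -1.22 ± 0.13, adjusted p = 0.0491), and it was lower in every pair. Acly, which makes cytosolic acetyl-CoA from citrate, had 113, 115 and 157 TPM with YN1 and 296, 187 and 239 TPM in NPEM (-0.90 ± 0.18, adjusted p = 0.0865), without overlap. Elovl5, an elongase of polyunsaturated fatty acids, had 177, 143 and 129 TPM with YN1 and 97.1, 64.5 and 66.3 TPM in NPEM (0.98 ± 0.10, adjusted p = 0.048), the opposite direction. On the side of fatty acid use, Acadvl, the long-chain dehydrogenase of mitochondrial oxidation, had 100.5, 87.4 and 77.6 TPM with YN1 and 49.6, 38.5 and 42.1 TPM in NPEM (1.01 ± 0.11, adjusted p = 0.0491). Of 23 tested genes of fatty acid oxidation 2 passed, both higher, and 10 were higher and none lower with p under 0.05 before adjustment (median LogFC 0.33). Genes of fatty acid synthesis from citrate had a median of -0.41 over 18 genes.

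Central carbon metabolism held few calls. Idh2, the mitochondrial NADP-dependent isocitrate dehydrogenase, had 239, 214 and 239 TPM with YN1 and 419.8, 345 and 389 TPM in NPEM (LogFC -0.73 ± 0.08, adjusted p = 0.0491). It was the smallest fall past the threshold and was narrowly spread in both groups. It was also the only call among 32 genes of pyruvate entry and the TCA cycle, whose median was 0.03. None of 26 glycolytic genes passed, while 10 were lower and 1 higher with p under 0.05 before adjustment, with a median of -0.32. Slc2a1, the glucose transporter GLUT1, had 18, 14.5 and 33.4 TPM with YN1 and 38.1, 28.2 and 70.4 TPM in NPEM (adjusted p = 0.0523), and Ldha, lactate dehydrogenase A, 606, 284 and 566 TPM with YN1 and 750.2, 580.1 and 1149 TPM in NPEM (-0.78 ± 0.17, adjusted p = 0.0974). Both genes were lower in each pair but overlapped between the groups. Pfkfb3, which encodes the target of YN1, had 16.5, 3.93 and 8.26 TPM with YN1 and 10.6, 7.12 and 12.8 TPM in NPEM (-0.24 ± 0.31, adjusted p = 0.685). YN1 acts on the enzyme and not on its mRNA, so this level is no check of the treatment. The other 3 genes of the family, Pfkfb1, Pfkfb2 and Pfkfb4, were at 0.57, 0.29 and -0.32, and none passed. In the serine and one-carbon pathway, Shmt1, the cytosolic serine hydroxymethyltransferase, had 29.3, 15.7 and 20.1 TPM with YN1 and 64.5, 50.6 and 57.9 TPM in NPEM (-1.41 ± 0.15, adjusted p = 0.0491), while Phgdh, the first enzyme of serine synthesis, had a LogFC of 0.83 ± 0.13 that did not pass (adjusted p = 0.0669).

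**Figure D3:**
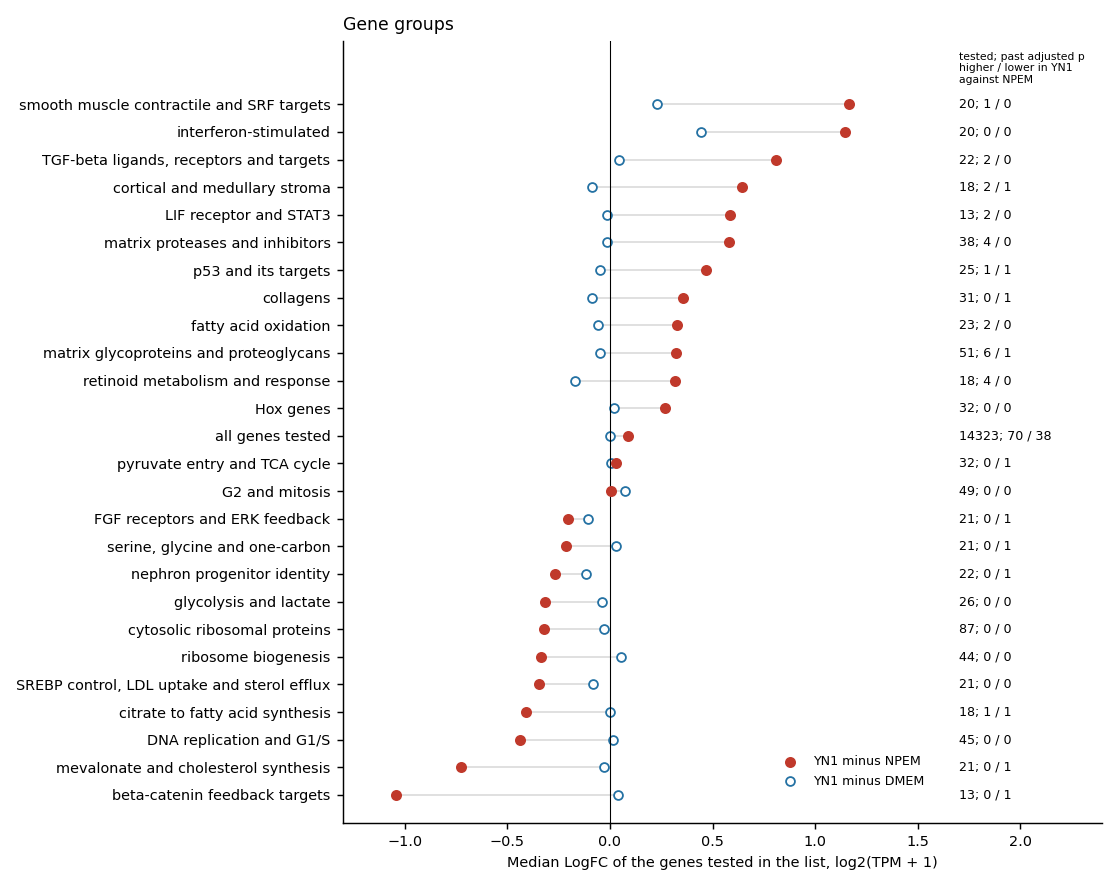
Median LogFC (log2(TPM + 1)) of the tested genes of 25 gene groups and of all genes, for YN1 minus NPEM (filled red) and YN1 minus DMEM (open blue), which share the YN1 libraries. The numbers at the right give the genes tested and those past the adjusted p, higher and lower, in YN1 against NPEM; medians run from 1.17 for smooth muscle genes to -1.04 for beta-catenin feedback targets against NPEM, and against DMEM most lie near 0.

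Replication genes had mostly negative LogFC, while mitotic genes were centred on 0. Of 45 genes of DNA replication and the G1/S step none passed the adjusted p, but 27 were lower and none higher with p under 0.05 before adjustment, and the median LogFC was -0.44. Pcna, the replication clamp, had 212, 145 and 192 TPM with YN1 and 335, 271 and 296 TPM in NPEM (-0.73 ± 0.10, adjusted p = 0.0557). Uhrf1, which keeps DNA methylation at the replication fork, had 92.5, 60.8 and 108 TPM with YN1 and 177, 148 and 190.1 TPM in NPEM (-1.01 ± 0.12, adjusted p = 0.0528). The groups did not overlap for either gene. Of 49 genes of G2 and mitosis 4 were lower and none higher with p under 0.05 before adjustment, with a median of 0.00, and the proliferation marker Mki67 had 102, 81.2 and 92.8 TPM with YN1 and 90.8, 79.5 and 88.4 TPM in NPEM (0.09 ± 0.09).

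Genes of ribosome assembly and of the ribosome itself also had negative medians. Ribosome biogenesis genes had a median LogFC of -0.33 over 44 genes, all 44 below 0 and 21 of them at an unadjusted p under 0.05, with no call. The 87 tested cytosolic ribosomal protein genes had a median of -0.32, with 59 lower and none higher with p under 0.05 before adjustment and again no call. Their share of all TPM was 8.41% to 10.6% in the YN1 libraries and at least 11.0% in each NPEM library. The median of the 74 mitochondrial ribosomal proteins was 0.05. Among p53 and its targets 13 of 25 were higher and 2 lower with p under 0.05 before adjustment. Ccng1, cyclin G1, passed as higher (236, 91.6 and 124 TPM with YN1, against 119, 38.6 and 40.1 TPM in NPEM; 1.27 ± 0.15, adjusted p = 0.0491) and Plk2, a stress-responsive kinase, as lower (104, 63.3 and 79.9 TPM with YN1, against 314, 122 and 214 TPM in NPEM; -1.31 ± 0.15, adjusted p = 0.0491). Cdkn1a, the inhibitor p21, was at 1.20 ± 0.21 (adjusted p = 0.077).

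Interferon-stimulated genes had a high median without any call. Of 20 tested, 13 were higher and none lower with p under 0.05 before adjustment, and the median LogFC was 1.15. Irf7, the factor that amplifies the interferon response, had 35.4, 6.61 and 7.93 TPM with YN1 and 1.87, 1.86 and 2.83 TPM in NPEM (2.10 ± 0.54, adjusted p = 0.113). Isg15, the ubiquitin-like modifier, had 96.6, 4.27 and 20.6 TPM with YN1 and 4.46, 2.42 and 6.7 TPM in NPEM (2.09 ± 0.70, adjusted p = 0.17). YN1 replicate 1 was the highest library for both genes by a wide margin, and YN1 replicate 2 overlapped the NPEM values of Isg15. Ddx58, the RNA sensor RIG-I, was more even, at 35.6, 18.4 and 15.5 TPM with YN1 and 8.87, 4.29 and 6.29 TPM in NPEM (1.65 ± 0.22, adjusted p = 0.0569).

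YN1 was given in a DMEM-based medium, and the DMEM control is the closest match to it without the drug. Its supplements, Fgf2 and hours of treatment are not described, so drug and medium are not cleanly separated here either. Of 14500 genes tested between YN1 and DMEM, none passed the adjusted p in limma (0%), and 1074 had p under 0.05 before adjustment (7.41%), 590 higher (4.07%) and 484 lower (3.34%). The groups did not overlap in 193 genes that were higher (1.33%) and 176 that were lower (1.21%). The smallest adjusted p was 0.112. The same 0 calls were obtained in each of the other settings tried. The median standard error per gene was 0.10 against DMEM and 0.19 against NPEM. DMEM against NPEM, which shares the NPEM libraries with YN1 against NPEM, gave 933 of 14343 genes (6.50%), 619 higher (4.32%) and 314 lower (2.19%). Before adjustment 4337 had p under 0.05 (30.2%), and 2172 higher (15.1%) and 1007 lower genes (7.02%) did not overlap. The count of 933 was 64 without the replicate block, 194 without a trend and 0 with no filter, where 4870 had p under 0.05 before adjustment. It also depended on the replicate pair left out: it was 537, 51 and 441 without DMEM replicates 1, 2 and 3, and 528, 53 and 362 without NPEM replicates 1, 2 and 3.

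For most genes called against NPEM the difference between YN1 and DMEM was small beside that against NPEM. Over the 70 rises the LogFC of YN1 minus DMEM ran from -0.39 to 1.97 with a median of 0.05. Their median was 2.05 for YN1 minus NPEM and, over the 68 tested there, 1.91 for DMEM minus NPEM. Over the 33 falls tested in both, the LogFC of YN1 minus DMEM ran from -0.81 to 0.14 with a median of -0.14. Over all 38 falls the medians were -1.80 for YN1 minus NPEM and -1.76 for DMEM minus NPEM. These 38 include large falls not tested between YN1 and DMEM, such as Lcp2, Mybpc1 and Kdr. Of these genes 11 of 70 rises and 5 of 33 falls had p under 0.05 between YN1 and DMEM before adjustment. The largest differences among the rises were in predicted genes: Gm26425 was at 1.97 ± 0.72, Gm24195 at 1.66 ± 0.18 and Gm25821 at 1.18 ± 0.48, none past the adjusted p. They are annotated as a pseudogene, a microRNA and a small nucleolar RNA, in that order. Gm26425 was listed at 0 TPM in DMEM replicates 1 and 2, and Gm24195 and Gm25821 at 0 TPM in NPEM replicates 2 and 3. Dhrs3 had 583, 607 and 519 TPM with YN1 and 531, 589 and 531 TPM in DMEM (0.05 ± 0.05), and Myc had 28.9, 25.9 and 22.8 TPM with YN1 and 27.1, 29.2 and 24 TPM in DMEM (-0.05 ± 0.08). Cxcl12 had 1967, 3399 and 2708 TPM with YN1 and 1881, 3231 and 2509 TPM in DMEM (0.08 ± 0.04). In all 3 genes the groups overlapped, and the difference was small beside that against NPEM. Rgs2 was at 12.1, 31.5 and 21.2 TPM with YN1 and at 27.7, 29.3 and 28 TPM in DMEM (-0.47 ± 0.24, adjusted p = 0.623).

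**Figure D4:**
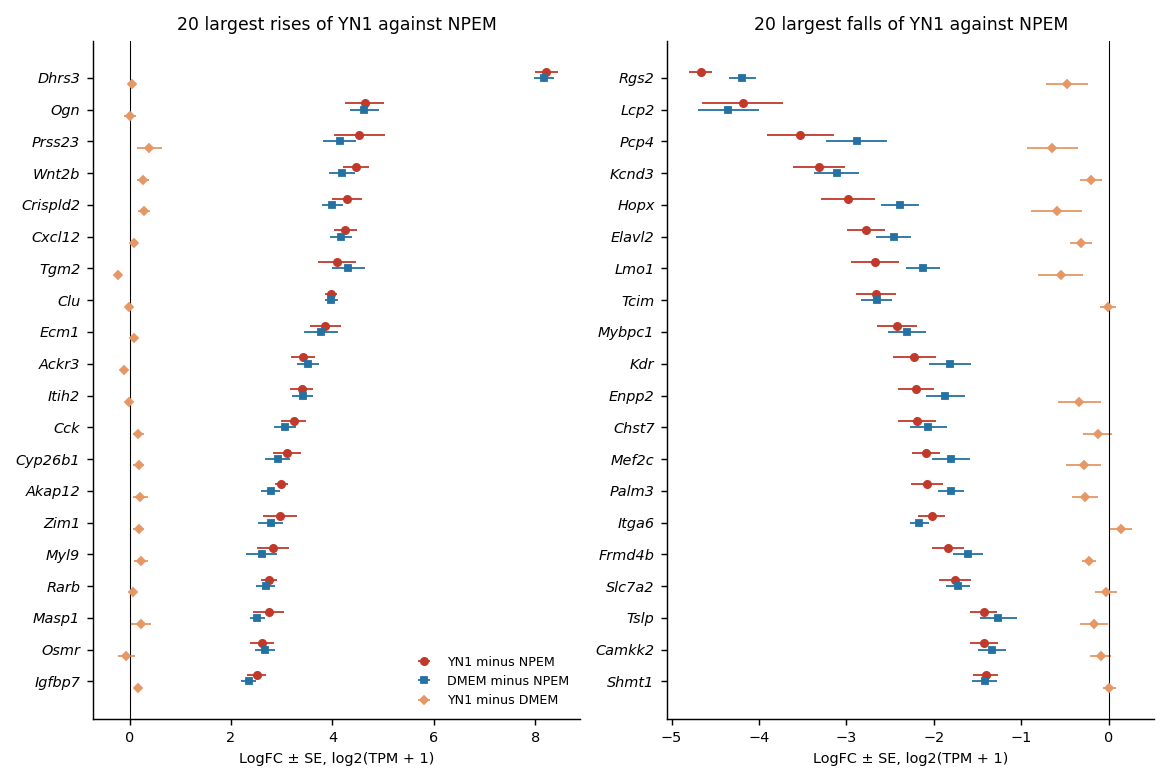
LogFC ± SE (log2(TPM + 1)) of the 20 largest named rises and falls of YN1 against NPEM, in YN1 minus NPEM (red circles), DMEM minus NPEM (blue squares) and YN1 minus DMEM (orange diamonds). The genes were picked by their YN1 minus NPEM difference. DMEM minus NPEM uses the same NPEM libraries, so a shared side of 0 is partly built in. Red and blue points lie on the same side of 0 for each gene, such as Dhrs3 at 8.22 and 8.17 and Rgs2 at -4.67 and -4.19, and orange points lie closer to 0, down to -0.65 for Pcp4, -0.59 for Hopx and -0.55 for Lmo1; Lcp2, Mybpc1 and Kdr have no orange point because they did not pass the filter in YN1 and DMEM libraries.

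Some groups of genes had shifts between YN1 and DMEM, although no gene of them passed the adjustment over all genes. Of 22 chaperones and other genes of the unfolded protein response, which help proteins fold in the endoplasmic reticulum, 11 were higher and none lower with p under 0.05 before adjustment, with a median LogFC of 0.15. Calr, calreticulin, had 1326, 622 and 847 TPM with YN1 and 1102, 549 and 719.5 TPM in DMEM (0.23 ± 0.04), and Hspa5, the chaperone BiP, 823, 501 and 572 TPM with YN1 and 671, 458 and 477 TPM in DMEM (0.23 ± 0.05). Hsp90b1, Pdia4 and Pdia3, further chaperones and disulfide isomerases of that compartment, were at 0.21, 0.20 and 0.17. Each of these 5 genes was higher with YN1 in all 3 pairs, at an adjusted p of 0.618. Against NPEM the same list had a median of -0.02.

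Smooth muscle genes had 7 of 20 higher and none lower with p under 0.05 before adjustment, with a median of 0.23. Cnn1 had 276, 28 and 159 TPM with YN1 and 144, 21.6 and 111 TPM in DMEM (LogFC 0.60 ± 0.12), and Tagln 2659, 501 and 1699.7 TPM with YN1 and 1508, 457 and 1281 TPM in DMEM (0.45 ± 0.14). Both genes were higher with YN1 in every pair, with overlap between the groups and an adjusted p of 0.618. The 13 mitochondrially encoded mRNAs were all above 0, 7 of them at an unadjusted p under 0.05, with a median of 0.31; the share of TPM from mitochondrially encoded genes varied from 1.35% to 3.64% over the 12 libraries. The interferon list had a median of 0.45 with 18 of 22 genes above 0, 4 higher and 3 lower with p under 0.05 before adjustment. Irf7 had 35.4, 6.61 and 7.93 TPM with YN1 and 5.95, 3.55 and 5.49 TPM in DMEM (1.20 ± 0.40), and Isg15 had 96.6, 4.27 and 20.6 TPM with YN1 and 5.83, 4.05 and 10.1 TPM in DMEM (1.62 ± 0.75), both with an adjusted p of 0.618. YN1 replicate 1 was the highest library for both. Ddx58 had 35.6, 18.4 and 15.5 TPM with YN1 and 16, 13.1 and 12.1 TPM in DMEM (0.63 ± 0.17, adjusted p = 0.618). The cholesterol list, which was low against NPEM, had 2 genes lower and none higher of 21, with a median of -0.03, and the NPC identity list 3 lower and none higher of 21, with a median of -0.12. Of the cholesterol genes 14 lay below 0 and of the identity genes 19, beside 7285 of 14500 over all genes. Cited1 had 13.6, 83.2 and 29 TPM with YN1 and 27.9, 84.4 and 36.7 TPM in DMEM (-0.45 ± 0.19), and Six2 36, 168 and 106 TPM with YN1 and 47.1, 175 and 121 TPM in DMEM (-0.21 ± 0.07, adjusted p = 0.618). Both were lower with YN1 in each pair, by less than the spread between replicates.

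Outside these lists, the predicted gene Gm24195, named after its values were seen, had 20.6, 10.4 and 13.1 TPM with YN1 and 4.4, 3.93 and 3.17 TPM in DMEM (LogFC 1.66 ± 0.18, adjusted p = 0.508). It is annotated as a microRNA at 54578139 to 54578221 on chromosome 13, so its TPM in a poly-A library is uncertain. Among genes with usual names and no overlap between YN1 and DMEM, those of smallest p had smaller differences. Ermard, a gene of the endoplasmic reticulum membrane, had 58.9, 58.6 and 52.7 TPM with YN1 and 45.7, 47.3 and 40.0 TPM in DMEM (LogFC 0.35 ± 0.05). Mpv17l, a peroxisomal and mitochondrial membrane protein, had 8.58, 5.96 and 6.02 TPM with YN1 and 4.48, 3.92 and 3.65 TPM in DMEM (0.63 ± 0.12). Pcif1, which methylates the mRNA cap, had 30.0, 36.4 and 36 TPM with YN1 and 41.8, 47.4 and 44.8 TPM in DMEM (-0.38 ± 0.06), and Alkbh2, a DNA repair dioxygenase, was at -0.48 ± 0.10. All 4 had an adjusted p of 0.618. Cyp7b1, an oxysterol hydroxylase that rose against NPEM (2.23 ± 0.22), was at 9.08, 8.7 and 6.93 TPM with YN1 and at 13.2, 10.4 and 9.81 TPM in DMEM (-0.39 ± 0.10), so that its level with YN1 stood between those in DMEM and NPEM.

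YN1 and CHIR were both given in DMEM-based medium, so their comparison holds the medium closer to constant. Of 14269 genes tested, 223 passed the adjusted p (1.56%), 158 higher with YN1 (1.11%) and 65 lower (0.456%). Before adjustment 3229 higher (22.6%) and 1164 lower (8.16%) had p under 0.05, and 2614 higher (18.3%) and 684 lower (4.79%) did not overlap. The count was 1 without the replicate block, 18 without a trend and 0 with no filter, where 4834 genes had p under 0.05 before adjustment. Without single libraries it lay between 95 (without CHIR replicate 3) and 280, with 145 and 129 without YN1 replicates 1 and 3. After quantile normalization 110 genes passed, and 55.5% of the calls were higher with YN1 in place of 70.9%. Of the retinoid genes that rose against NPEM, Dhrs3 had 583, 607 and 519 TPM with YN1 and 346, 508 and 385 TPM with CHIR (LogFC 0.48 ± 0.12, adjusted p = 0.0811), and Rarb 153, 76.7 and 91.9 TPM with YN1 and 99.6, 96.3 and 99.6 TPM with CHIR (0.06 ± 0.20). Neither passed, and both were far above the NPEM libraries. Stra6 passed in the other direction, with 5.19, 17.6 and 15.7 TPM with YN1 and 26.7, 67.1 and 73.1 TPM with CHIR (-2.06 ± 0.13, adjusted p = 0.0236).

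The signals Cxcl12 and Wnt2b were higher with YN1 than with CHIR, and their levels in DMEM without the drug were close to those with YN1. Cxcl12 had 1967, 3399 and 2708 TPM with YN1 and 159, 115 and 84.7 TPM with CHIR (LogFC 4.49 ± 0.28, adjusted p = 0.0236), and Wnt2b 15.8, 35.8 and 33.8 TPM with YN1 and 1.2, 3.97 and 3.8 TPM with CHIR (2.89 ± 0.15, adjusted p = 0.0236). The DMEM control had 1881, 3231 and 2509 TPM of Cxcl12 and 11.4, 36.3 and 25.5 TPM of Wnt2b. Hpgd, which inactivates prostaglandins, had 48.9, 172 and 103 TPM with YN1 and 3.2, 14.2 and 7.94 TPM with CHIR (3.54 ± 0.11, adjusted p = 0.00652), the smallest adjusted p of this comparison. Progenitor genes differed as well: Cited1 had 13.6, 83.2 and 29 TPM with YN1 and 1.39, 6.13 and 1.11 TPM with CHIR (3.33 ± 0.28, adjusted p = 0.0269), and Meox1, a homeobox factor of mesenchyme, was higher by 3.75 ± 0.46. Six2 had 36, 168 and 106 TPM with YN1 and 27.2, 125 and 64.3 TPM with CHIR (0.51 ± 0.11, adjusted p = 0.0705). Of 22 NPC identity genes 3 passed as higher with YN1 and none as lower. Elovl5, Il6st and Adamts1, which rose against NPEM, were also higher with YN1 than with CHIR (0.98, 1.46 and 2.25).

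Most WNT target genes were lower with YN1 than with CHIR, which inhibits GSK3 and so stabilises beta-catenin. Axin2 had 0.834, 2.81 and 5.76 TPM with YN1 and 17.5, 19.7 and 34.9 TPM with CHIR (LogFC -2.73 ± 0.25, adjusted p = 0.0293), and Lef1 6.32, 1.28 and 3.28 TPM with YN1 and 38.3, 6.95 and 31.5 TPM with CHIR (-2.38 ± 0.26, adjusted p = 0.0349). Wnt4 had 5.3, 1.36 and 18 TPM with YN1 and 85.8, 39.1 and 176 TPM with CHIR (-3.70 ± 0.20, adjusted p = 0.0236). Each of the 3 genes was lower with YN1 in every pair, and 5 of 13 beta-catenin feedback targets passed as lower and 1 as higher. Of these 13, 11 lay below 0 and 2 above. Dkk1 went the other way, with 6.32, 18.9 and 1.8 TPM with YN1 and 0.8, 0.687 and 0.316 TPM with CHIR (2.23 ± 0.49, adjusted p = 0.0721). Mybpc1, a myosin-binding protein, had 0.11, 0.0 and 0.32 TPM with YN1 and 16.5, 73.7 and 32.2 TPM with CHIR (-4.95 ± 0.45, adjusted p = 0.0297), and it had also fallen against NPEM (5.9, 3.83 and 5.81 TPM; -2.43 ± 0.23). In glycolysis 4 of 26 genes passed as lower with YN1 and 1 as higher, with a median LogFC of -0.63 beside 0.16 over all genes. Aldoa, the aldolase of glycolysis, was one of them, with 386, 295 and 493 TPM with YN1 and 627, 512 and 888 TPM with CHIR (-0.78 ± 0.08, adjusted p = 0.0314). Fasn was lower with YN1 than with CHIR too (-0.90 ± 0.11, adjusted p = 0.0416), whereas no gene of the 21 in the cholesterol list passed and the median there was -0.09.

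**Figure D5:**
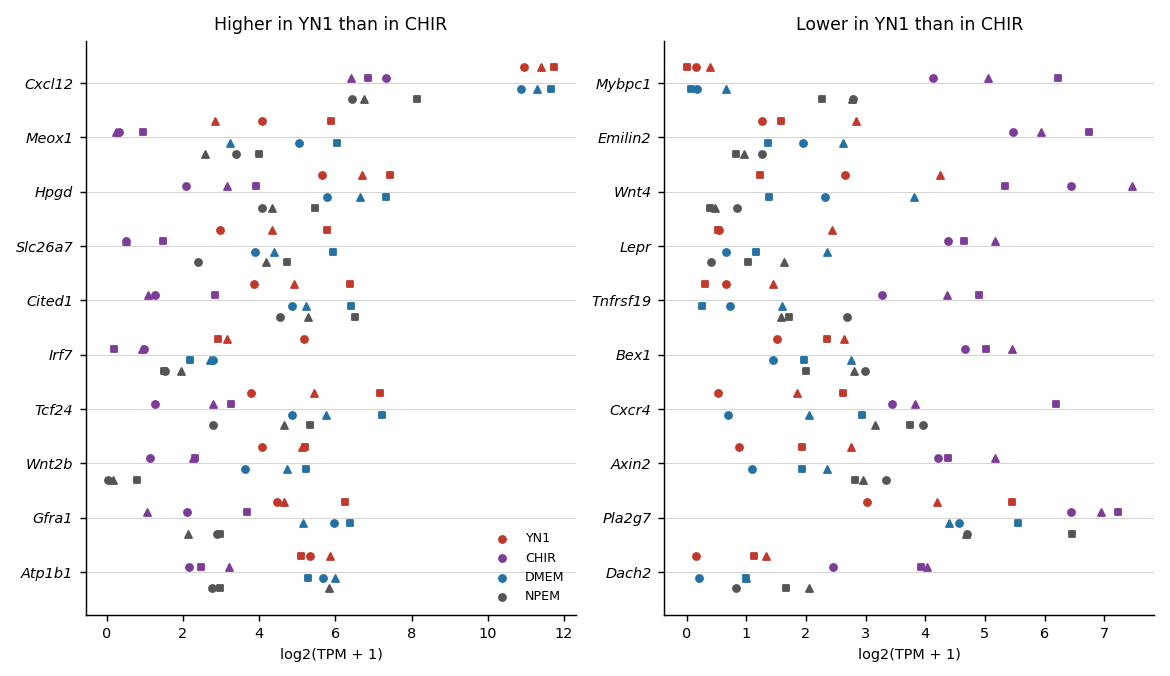
Levels, as log2(TPM + 1), of the 10 largest rises (left) and falls (right) of YN1 against CHIR among named genes, with YN1 (red) above CHIR (purple), DMEM (blue) and NPEM (grey) for each gene and marker shape for the replicate number (circle 1, square 2, triangle 3). Cxcl12 and Wnt2b are high in YN1 and DMEM alike and lower in CHIR and NPEM, and Wnt4 and Axin2 stand apart in CHIR, at 39.1 to 176 and 17.5 to 34.9 TPM against 1.36 to 18 and 0.834 to 5.76 TPM with YN1.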

How the data were processed

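Bulk RNA-seq was measured in 12 libraries of 4 groups, 3 each. According to the labels and the study's methods, the authors made non-stranded poly-A libraries, named FastQC, STAR and RSEM, and deposited TPM values, normalised for transcript length and library size and collapsed to genes. Read lengths differ between the sources, and depth is unknown. Columns of the authors' own comparisons (Sleuth effects and q-values) were not used. Here R 4.3.3 with limma 3.58.1 fitted log2(TPM + 1) with the replicate number as a block, eBayes with trend and Benjamini-Hochberg adjustment, on genes of at least 1 TPM in 3 or more of 6 libraries, at an adjusted p of 0.05 (two-sided). Same-numbered YN1 and NPEM libraries deviated from their group means together (correlations 0.383 to 0.453 across 14323 genes, against -0.301 to -0.115 for other pairs), so the numbers were taken as pairs. Deviations cancel within each group, so the negative values follow from the positive ones and are no separate support. No 2 libraries held identical values. Differences are on the log2(TPM + 1) scale and understate low genes. Promoter windows, RefSeq GRCm38.p6, lie from 250 bases before to 50 after a start, outside chromosome 18, and positions come from the same build; the authors' annotation release is not given in the sources used here. Without strand, overlapping and antisense genes, and genes with near-identical copies, are uncertain. Named genes were the 20 largest rises and falls past the adjusted p without overlap and with usual names, calls within lists, and list members of smallest p or highest TPM; other members were chosen after their values were seen. The members and lists were chosen with earlier results of these data known. Alternatives were no block, quantile normalization, no filter, a mean of 5 TPM, a pseudocount of 0.1, no trend, all 12 libraries in 1 fit, and each library left out. Some genes are not reported here.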

Additional observations from a re-analysis of the deposited data

How the results depend on the processing

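Without the replicate block, 33 genes passed between YN1 and NPEM (22 higher, 11 lower; 30 of the 108 among them), 64 between DMEM and NPEM, 1 between YN1 and CHIR and 0 between YN1 and DMEM. With no filter on low values no gene passed in any comparison in limma, although 4035 had an unadjusted p under 0.05 for YN1 against NPEM; more genes were then tested (31900). Of the counts for YN1 against NPEM, a pseudocount of 0.1 gave 68 (20 lower) and no trend in the variance gave 4 (3 higher, 1 lower), with 194 for DMEM against NPEM and 18 for YN1 against CHIR. All 12 libraries in 1 fit gave 2374 (1555 higher, 819 lower), 2025 and 3002. A mean of at least 5 TPM gave 134, and 542 for YN1 against CHIR, where quantile normalization gave 110. Leaving out 1 library gave 8 to 278 for YN1 against NPEM (7 to 199 higher, 1 to 79 lower), 51 to 537 for DMEM against NPEM and 95 to 280 for YN1 against CHIR; its partner then carried no information, and the lone pairs were assumed to vary like the rest. The cause of these shifts was not tested. YN1 against DMEM kept 0 calls in every setting tried. Dhrs3 and Rgs2 passed in 12 of 13 settings, all but the one with no filter, and none of the 108 genes changed direction in any. The metabolic calls held less often: Idh2 and Acadvl passed in 2 of 13 settings, Elovl5 and Shmt1 in 3, Fasn in 5 and Hsd17b7 in 6. The median LogFC over all genes was -0.02 after quantile normalization and 0.09 without it. Unknown depth limits what can be said of genes near 0 TPM.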

Other observations

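Among the 14323 genes tested in YN1 against NPEM, 10 differed by at least 10-fold between all 4 libraries of 1 replicate number and all 8 others. The higher side had to reach 10 TPM in each of its libraries, whatever the treatment. Those not named below carry names of predicted genes or pseudogenes. Krt8 and Krt18, keratins of simple epithelia, had 34.7 to 58.3 and 37.8 to 68.1 TPM in the replicate 3 libraries and 0.0243 to 1.75 and 0.137 to 2.27 TPM in the others. Ly6a, the surface antigen Sca-1, had 95.2 to 193 TPM in replicate 3 and 0.402 to 6.13 TPM in the others, while Rps2, a ribosomal protein gene with many pseudogene copies, had 17.9 to 30.9 TPM in replicate 3 and 699 to 1287 TPM in the others. In YN1 against NPEM the same genes had LogFC of 0.39 (Krt8), 0.71 (Krt18), 0.07 (Ly6a) and -0.53 (Rps2), and none passed the adjusted p.

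Small nucleolar RNAs, which guide the modification of ribosomal RNA and are poorly captured by poly-A selection, had a median LogFC of 0.39 over 58 tested names in YN1 against DMEM, where 10 were higher and 1 was lower with p under 0.05 before adjustment; of 59 in YN1 against NPEM there were 8 in each direction. Among imprinted genes Peg3, a zinc finger protein, had 199.6, 211 and 216 TPM with YN1 and 58.6, 110.2 and 56.6 TPM in NPEM (LogFC 1.53 ± 0.21, adjusted p = 0.0584), and the noncoding RNA H19 had 2028, 2689 and 4052 TPM with YN1 and 1241, 759 and 1257 TPM in NPEM (1.41 ± 0.24, adjusted p = 0.0751). Zim1, another imprinted zinc finger gene, passed (2.97 ± 0.34, adjusted p = 0.0491). Against CHIR, 6 of 21 imprinted growth genes were called higher with YN1 and none lower.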
